A study of Mus musculus with 74 samples.

Results

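The late response to TGF-β of cells labelled with the MEK inhibitor U0126 is described here from 12 of the 74 dual-channel mouse arrays of the study. The members are the arrays whose titles pair S2WT with U0126 and give 2 h or 4 h (6 arrays, called late), set against those that give 0 h or 0.3 h (6 arrays, called early). Each of the 4 times has 3 arrays, and the 3 arrays at 1 h were used only to follow the values in between. A late or 0.3 h array carried, by its labels, RNA of S2WT/U0126 cells with TGF-β in channel 2 and without TGF-β in channel 1. A 0 h array carried RNA without TGF-β in both channels. The arrays labelled S2WT alone (the same 5 times and channels, no U0126) served for comparison, with 12 arrays at the same times. In their case the source name of the 4 h arrays says 2 h, and the time in the title was taken.

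The labels give neither a dose, nor a cell type, nor what S2 stands for. In the published study of this design S2 is Smad2 and the cells are mouse embryonic fibroblasts. U0126 stands in the labels of both channels and at every time, so what all 12 arrays share is the drug, and each ratio is read as TGF-β against none within cells so labelled. The titles could instead name the channels, and a ratio would then include what the drug itself does. Nothing in the labels ties replicate arrays to separate cultures, so the spread behind the p-values is that of arrays and could be technical. A value is the deposited log2 ratio minus the median of its array. The direction is likely channel 2 over channel 1 but not certain: Hbegf, a gene known to be induced by TGF-β, had positive ratios on the late arrays of S2WT and of U0126. A ratio gives no level, so the cell type could not be checked. Of the marker lists, 8 fibroblast, 2 epithelial, 2 leukocyte and 4 endothelial probes were tested and 0 were called. With 0.644% of all probes called, this is near the background and is no result about the markers. No muscle or erythroid marker was measured. Probes measured on an array numbered 8167 to 8676, and arrays correlated weakly over probes, with r from 0.15 to 0.40 between late arrays and 0.02 to 0.38 between early ones.

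TGF-β binds serine/threonine kinase receptors that phosphorylate Smad2 and Smad3, which enter the nucleus with Smad4 and change transcription together with other factors. The same receptors can also feed the Ras, Raf, MEK and ERK kinase cascade, whose targets include AP-1 factors, growth factors and the pathway's own inhibitors. U0126 blocks MEK and therefore the activation of ERK, and is used to ask which TGF-β target genes need that branch. The comparison asks which ratios moved by 2 to 4 h in cells labelled with the drug, and whether they moved differently in S2WT.

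By 2 to 4 h the ratios of Arid5b and Txnip had fallen by 1.17 and 1.34 on the log2 scale and those of Creb3l2 and the growth factor gene Hbegf had risen by 0.97 (probe 887) and 1.36, and these 4 probes were also called in S2WT. limma called 53 of 8227 probes (0.644%) at an adjusted p under 0.05, 30 higher (0.365%) and 23 lower (0.28%), with 968 at an unadjusted p under 0.05. The number called was 16 with the 0 h arrays alone as baseline, 29 with the U0126 arrays fitted alone and 263 with array weights. Of the original 53 calls, 13 were kept with the 0 h baseline, 12 with the U0126 arrays fitted alone and 24 with the 0.3 h arrays alone as baseline. The changes of the probes called higher ran from 0.56 to 2.00 with a median of 1.08, and those called lower from -2.31 to -0.49 with a median of -0.75. A single gene symbol that is no clone name belonged to 37 of the 53, which stand for 36 genes. Of the 40 called probes measured on all 12 arrays, 30 had late and early arrays that did not overlap. Over all 5633 such probes, 227 (4.03%) did not overlap, 117 higher (2.08%) and 110 lower (1.95%). The calls were made on these same values, so the larger share among them follows from that choice and does not support them.

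Promoter windows were taken for the called named genes with the smallest p, the falls Arid5b and Txnip and the rises Pprc1 and Creb3l2. Those of Arid5b, Txnip and Creb3l2 are shown. In each of these genes 1 probe kept its call under the 9 alternative settings and in the 12 fits that each left out 1 array. Zfas1 kept its call too, but no window was taken for it. The Pprc1 window, without a match to the motifs given below, is not shown. Each window is the 300 bases that RefSeq's promoter table gives for 1 annotated start of the gene, 5′ to 3′ on the gene's strand, on GRCm38.p6. That start need not be the outermost: of the window, 250 bases lie before the annotated gene for Txnip and 122 for Creb3l2, while the Arid5b window lies wholly within its gene, 379 bases from that gene's 5′ end. Arid5b lies at chr10:68278677-68278976 on the minus strand, Txnip at chr3:96557707-96558006 on the plus strand and Creb3l2 at chr6:37442099-37442398 on the minus strand. Capitals mark motif matches.
Arid5b: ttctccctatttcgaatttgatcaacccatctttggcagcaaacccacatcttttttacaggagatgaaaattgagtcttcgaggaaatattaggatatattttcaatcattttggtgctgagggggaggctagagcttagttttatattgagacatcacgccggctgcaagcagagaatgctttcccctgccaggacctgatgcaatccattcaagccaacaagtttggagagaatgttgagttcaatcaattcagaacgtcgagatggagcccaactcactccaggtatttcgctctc
Txnip: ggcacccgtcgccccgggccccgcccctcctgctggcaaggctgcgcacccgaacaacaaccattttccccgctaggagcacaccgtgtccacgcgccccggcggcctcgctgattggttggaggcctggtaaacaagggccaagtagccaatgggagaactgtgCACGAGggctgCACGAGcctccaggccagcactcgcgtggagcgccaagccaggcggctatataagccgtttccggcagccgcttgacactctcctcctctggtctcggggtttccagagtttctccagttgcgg
Creb3l2: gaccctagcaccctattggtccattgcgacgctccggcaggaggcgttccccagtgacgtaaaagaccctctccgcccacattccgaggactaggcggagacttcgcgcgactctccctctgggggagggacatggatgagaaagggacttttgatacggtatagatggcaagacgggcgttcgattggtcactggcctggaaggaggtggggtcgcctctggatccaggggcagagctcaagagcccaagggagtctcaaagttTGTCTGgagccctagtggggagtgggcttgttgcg

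The motifs searched on both strands were the Smad-binding repeat CAGACA (read TGTCTG on the other strand), the Smad palindrome GTCTAGAC, the AP-1 site TGACTCA and the E-box CACGTG. Creb3l2 holds 1 Smad repeat, as do 21% of the 32851 promoter windows of this length. The AP-1 site was found in 5.2% of windows, the palindrome in 0.213% and the E-box in 7.15%, and none of the 3 was found in the Arid5b, Txnip or Creb3l2 window. A further motif, a pair of CACGAG repeats with 5 bases between them, was added after the Txnip sequence had been read. It is known in this promoter as a carbohydrate response element, and the Txnip window alone among the 32851 holds it. Because the motif was added after that sequence was read, its match there was fixed in advance. The count over windows is therefore no result about Txnip. GC content was 43.3% for Arid5b, 65.3% for Txnip and 59.7% for Creb3l2, against a mean of 53.8% over all windows.

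The lowered genes begin with Arid5b, a DNA-binding protein that works with a histone demethylase. Its ratios were -1.27, -1.41 and -1.21 on the 2 h arrays and -0.85, -0.80 and -1.14 on the 4 h arrays, against 0.14, -0.004 and -0.10 at 0 h and -0.05, 0.18 and 0.16 at 0.3 h. All 6 late arrays were below all 6 early ones, and the 2 h arrays were lower than the 4 h arrays. Arid5b fell by 1.17 ± 0.14 (SE; limma, adjusted p = 9.39e-07). At 1 h its ratios were still -0.08, -0.32 and 0.09. Txnip encodes the thioredoxin-interacting protein, an arrestin-like inhibitor of thioredoxin and of glucose uptake. It had -1.43, -1.60 and -1.71 at 2 h and -1.87, -1.57 and -1.20 at 4 h, against -0.12, 0.07 and -0.18 at 0 h and -0.40, -0.77 and 0.06 at 0.3 h. Late and early arrays did not overlap, and 1 of the 0.3 h arrays was already lower than the rest of the early ones. Txnip fell by 1.34 ± 0.21 on this probe (limma, adjusted p = 0.000131), while its other probe was at 0.25 (adjusted p = 0.865).

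Ddit4l (also known as Redd2), an inhibitor of mTORC1 signalling, had -0.63, -0.68 and -1.08 at 2 h and -0.77, -0.76 and -0.88 at 4 h. Against these stood 0.67, 0.21 and 0.06 at 0 h and 0.23, -0.10 and 0.28 at 0.3 h, without overlap. It fell by 1.03 ± 0.20 (limma, adjusted p = 0.00561). The Ddit4l call was lost with the 0.3 h arrays alone as baseline. Shc1, an adaptor that links receptors to Ras, fell by 0.69 ± 0.14 (limma, adjusted p = 0.00824), with late ratios of -0.62 to -0.19 against early ones of -0.12 to 0.57. Its other probe was at -0.30 and was not called, and the call was lost without centring, with the U0126 arrays fitted alone and with the 0 h baseline. For the non-coding host gene of snoRNAs Zfas1, the early arrays stood high at 0.44 to 0.84 and the late arrays near 0 at -0.55 to -0.01. Zfas1 fell by 0.79 ± 0.15 (limma, adjusted p = 0.00319), so its call describes a ratio that was above 0 before and close to 0 later.

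Glul, glutamine synthetase, fell by 0.74 with late arrays of -0.81 to -0.15 against early arrays of -0.21 to 0.59, which overlap. Hilpda, a lipid droplet protein induced by hypoxia, fell by 0.72 (late -0.56 to 0.19, early 0.05 to 0.76), and Cox7a2, a subunit of cytochrome c oxidase, fell by 0.71 (late -0.81 to 0.28, early 0.40 to 1.03). The limma adjusted p was 0.0178 for Glul, 0.0441 for Hilpda and 0.0169 for Cox7a2. For Cox7a2, 5 of the 6 late ratios lay at 0.11 to 0.28, and the early ratios were the ones away from 0. Hmgn3, a nucleosome-binding protein, fell by 0.62 and Cckar, the cholecystokinin A receptor, by 0.75 (limma, adjusted p = 0.0148 and 0.00824). The calls of Glul, Hilpda, Cox7a2, Hmgn3 and Cckar were all lost with the U0126 arrays fitted alone and with the 0.3 h arrays alone as baseline. Those of Hilpda, Cox7a2 and Cckar were also lost with the 0 h baseline, so that Cckar kept its call under 6 of the 9 alternatives. With 1 array left out, Cckar kept its call in 12 of 12 fits, Glul in 10 (lost without 0 h replicate 3 or 2 h replicate 3), Hmgn3 in 10 (lost without replicate 2 of 2 h or of 4 h) and Cox7a2 in 9 (lost without replicate 1 of 0 h or of 0.3 h, or 4 h replicate 2). Hilpda kept it in 2, those without replicate 3 of 0 h or of 0.3 h, and lay between -0.83 and -0.65 over the 12.

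On the raised side, 2 of the 3 Creb3l2 probes were called. Creb3l2 is a membrane-bound transcription factor of the secretory pathway that is released by cleavage. Probe 7439 gave 1.00, 0.68 and 0.82 at 2 h and 0.61, 0.76 and 0.95 at 4 h, against -0.26, -0.23 and -0.07 at 0 h and -0.15, 0.14 and -0.20 at 0.3 h. Late and early groups did not overlap, and the 1 h ratios of -0.33, 0.01 and -0.17 were still with the early ones. Creb3l2 rose by 0.93 ± 0.18 on this probe and by 0.97 ± 0.19 on probe 887 (limma, adjusted p = 0.00319 and 0.00561). The call of probe 887 was lost with the 0.3 h arrays alone as baseline (0.73), and the third probe was at 0.72 ± 0.57 and was not called.

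Hbegf, the heparin-binding EGF-like ligand of the EGF receptor and itself a target of ERK, had 2.00, 1.71 and 1.43 at 2 h and 1.13, 0.87 and 1.40 at 4 h. The early arrays gave 0.33, 0.17 and 0.20 at 0 h and 0.39, 0.11 and -0.83 at 0.3 h, all below the late ones. Hbegf rose by 1.36 ± 0.32 (limma, adjusted p = 0.0235). The call was lost in 3 of the 12 fits that left out 1 array. The change was then 1.18 (0.3 h replicate 3 left out), 1.29 (replicate 1 of 2 h left out) or 1.30 (replicate 3 of 4 h left out). It was also lost with the U0126 arrays fitted alone (adjusted p = 0.137) and with the 0 h baseline (1.19; limma, adjusted p = 0.283). Slc25a20, the mitochondrial carnitine/acylcarnitine carrier of fatty acid oxidation, had 1.35, 1.30 and 1.21 at 2 h and 0.70, 0.80 and 1.04 at 4 h. Its early arrays spread more widely, at 0.17, -0.92 and 0.27 at 0 h and 0.14, 0.04 and -1.05 at 0.3 h. Slc25a20 rose by 1.29 ± 0.32 (limma, adjusted p = 0.0408), and the groups did not overlap. Its call held under 5 of the 9 alternatives and in 3 of the 12 fits without 1 array. Those were the fits without 0 h replicate 3 or replicates 1 or 2 of 0.3 h. Over all 12 fits the change ran from 1.10 to 1.40.

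**Figure D1:**
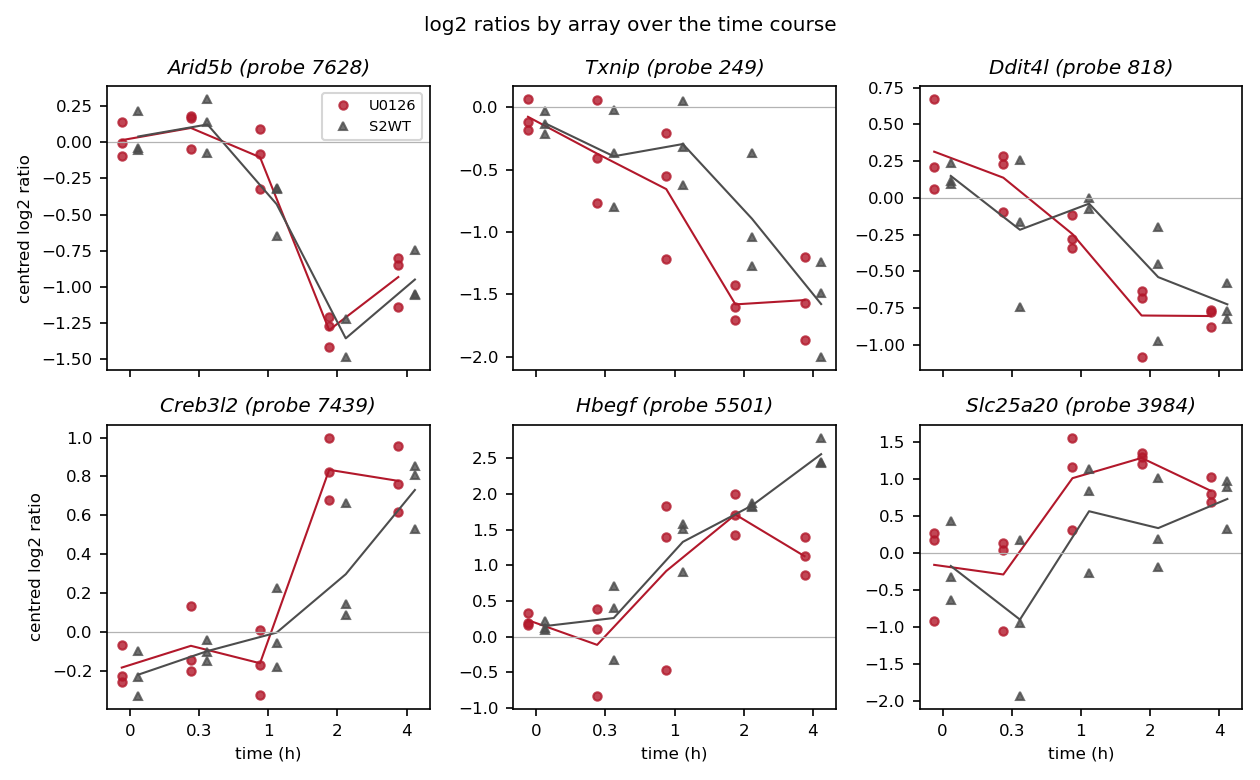
Median-centred log2 ratio (vertical axis) of 6 probes on each array at 0, 0.3, 1, 2 and 4 h (horizontal axis, equally spaced), for U0126 arrays (red circles) and S2WT arrays (grey triangles), with lines through the means of the 3 arrays or fewer. Arid5b, Txnip and Ddit4l lie below 0 and Creb3l2, Hbegf and Slc25a20 above 0 on all 6 late U0126 arrays.

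Nectin1, an immunoglobulin-like adhesion molecule, had late ratios of 0.52 to 1.48 against early ratios of -0.86 to -0.16, and rose by 1.60 ± 0.32 (limma, adjusted p = 0.00596), while its other probe was at 0.23. Nolc1, a nucleolar chaperone of ribosome biogenesis, rose by 1.04 ± 0.22 (limma, adjusted p = 0.00824). Its late ratios of 0.06 to 1.25 lay above the early ones of -0.99 to -0.10. Pprc1, a PGC-1-related coactivator of mitochondrial genes, and the metalloprotease gene Adam19 were singled out after their values were seen. Pprc1 rose by 0.73 ± 0.13, with late arrays of 0.39 to 0.87 against early arrays of -0.56 to 0.22. Adam19 rose by 0.74 ± 0.17 on the called probe, whereas its others gave 0.02 and 0.35. The limma adjusted p was 0.00319 for Pprc1 and 0.0235 for Adam19. Nolc1 lost its call without 2 h replicate 3 (0.86), and Adam19 lost it without 0.3 h replicate 3, 0 h replicate 2, 2 h replicate 3 or 4 h replicate 1 (0.62 to 0.83 over all 12 fits). With the 0 h arrays alone as baseline the calls of Nectin1, Nolc1, Pprc1 and Adam19 were lost, and with the U0126 arrays fitted alone those of Nolc1, Pprc1 and Adam19. Those of Nolc1 and Adam19 were also lost with the 0.3 h arrays alone as baseline, and that of Adam19 without centring.

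Not every call reflects a late ratio that left 0. Among the 53 probes, the late mean was farther from 0 than the early mean in 31 (16 higher, 15 lower), and the early mean was the farther one in 22 (14 higher, 8 lower). In the 14 higher ones the median late mean was 0.27 and the median early mean -0.84, and the early arrays varied with a median SD of 0.92 against 0.22 for the late arrays. They include Uhrf1bp1 with early ratios from -3.96 to 0.08 and late ratios from -0.24 to 0.33, and Pds5b, a cohesin regulator, with early ratios from -4.11 to -0.35 and late ones from -0.28 to 0.41. The fitted changes were 2.00 for Uhrf1bp1, whose call was lost without 0.3 h replicate 3 or 0 h replicate 2 (1.44 to 2.36 over the 12 fits), and 1.71 for Pds5b, whose call was lost without 0.3 h replicate 2 or 0 h replicate 1 (1.28 to 2.15). Both calls were also lost with the U0126 arrays fitted alone and with the 0 h baseline, as was that of Stk39. Stk39, a kinase that regulates cation-chloride cotransporters, rose by 1.90 with 1 early array at -5.50 and 2 early arrays without a value. The other probes of Uhrf1bp1, Pds5b and Stk39 showed no such rise. Their late and early means were -0.27 and -0.14 for Uhrf1bp1, -0.386 and -0.386 for Pds5b, and -0.18 and 0.05 for Stk39. Rprd1b, a regulator of RNA polymerase II, was at -4.51 and -2.05 on the 2 measured 0 h arrays, and at 0.78, 0.98 and -0.79 at 0.3 h. Its late arrays lay between -0.30 and 0.02, so its change of 1.28 turns to -0.53 (adjusted p = 0.629) when the 0.3 h arrays alone are the baseline.

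**Figure D2:**
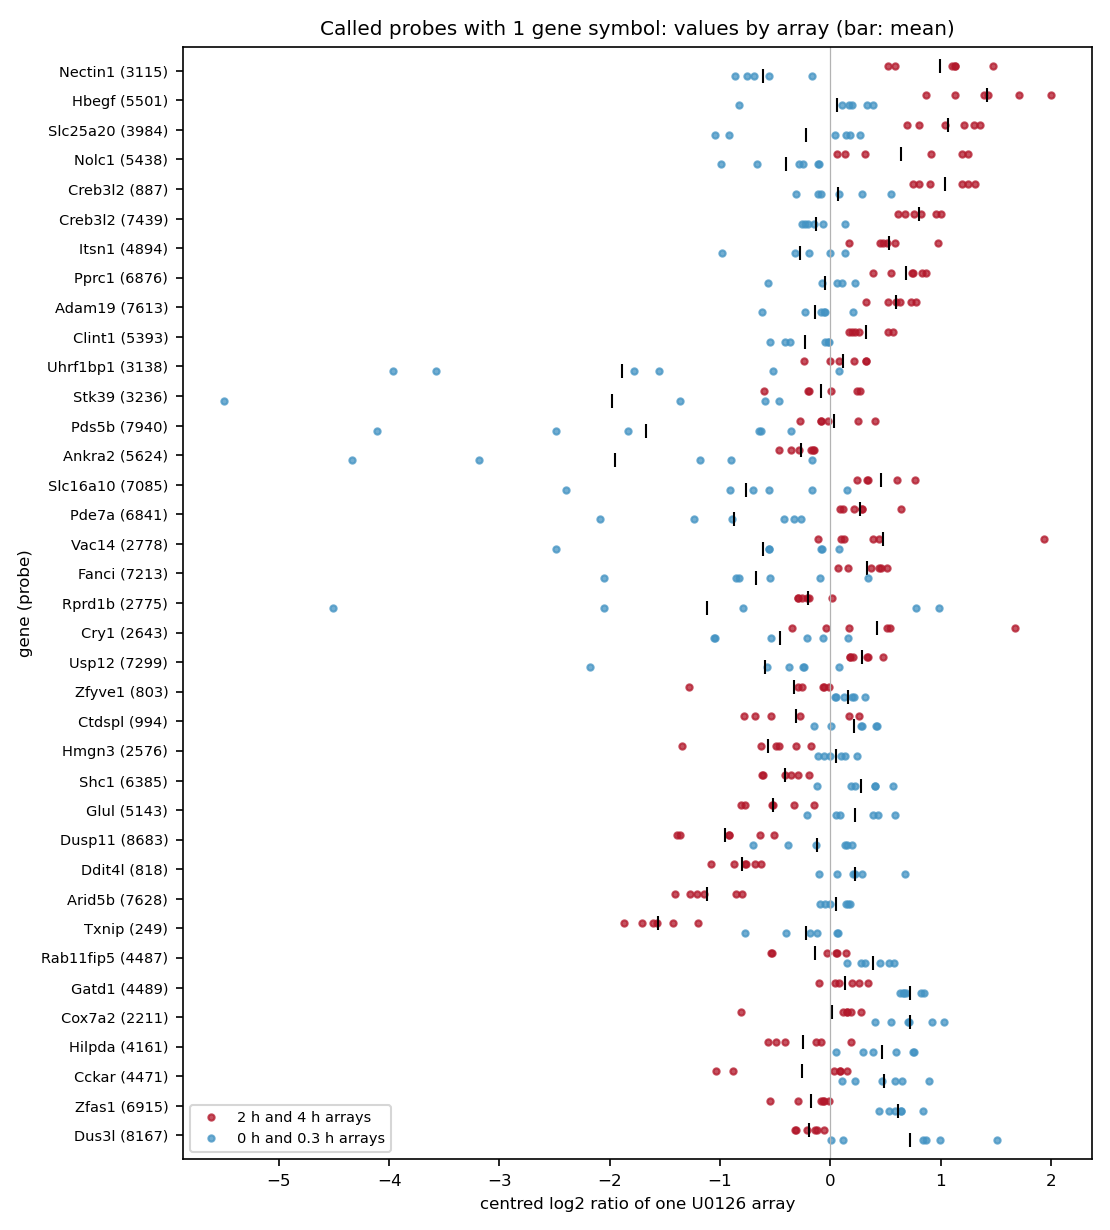
Median-centred log2 ratio (horizontal axis) of the 37 called probes with 1 gene symbol on the 6 late (red, upper) and 6 early (blue, lower) U0126 arrays, with a bar at each mean, the probes called higher above those called lower. Red points leave 0 for Hbegf, Arid5b and Txnip, whereas for Uhrf1bp1, Stk39, Pds5b and Ankra2 the blue points reach -3.96, -5.50, -4.11 and -4.34.

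By time, the median change of the 30 higher probes from the early mean was 1.02 at 2 h and 1.12 at 4 h, and that of the 23 lower probes -0.57 at 2 h and -0.88 at 4 h, which describes the values that chose them. At 1 h, tested against the early arrays, 6 of 8328 probes (0.072%) were called at 1 h, 1 higher (0.012%) and 5 lower (0.06%). Gla, the lysosomal α-galactosidase, was low on all 3 arrays at -1.54, -1.25 and -1.59, against -0.51 to 0.08 on the early arrays, and fell by 1.29 ± 0.28 (limma, adjusted p = 0.0459). Its call was kept in 3 of the 9 fits that left out 1 array (-1.39 to -1.21 over all 9) and under 5 of the 9 alternatives. For the others 1 or 2 arrays at 1 h stood far from the rest, as for Kifap3, a kinesin-associated protein, with -3.35, -0.68 and -0.27 at 1 h against 0.08 to 0.50 on the early arrays.

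Between the late times, 6 of 8642 probes (0.0694%) differed, 3 higher (0.0347%) and 3 lower (0.0347%). Scd1, the stearoyl-CoA desaturase that makes monounsaturated fatty acids, had -1.09, -1.08 and -0.99 at 4 h, against -0.06, -0.28 and 0.05 at 2 h. It fell by 0.96 ± 0.20 between those times (limma, adjusted p = 0.0491). The arrays of each time were close together and the times did not overlap. Scd1 was called on these same values, so the separation does not support the call. How many of all probes separate these times was not counted. The replicate number was also fitted as a block over all times of a line. It was taken to pair only 2 h with 4 h, so this is no paired test of those times alone. With the block, 3 probes were called, 1 higher and 2 lower. Scd1 then kept its call (limma, adjusted p = 0.0357) while Oxct1 lost it (0.101). Without centring and with the U0126 arrays fitted alone 0 probes were called, so Scd1 lost its call there. With 1 array left out, the Scd1 call held in 2 of the 6 fits, those without 2 h replicate 2 or 4 h replicate 3. Over all 6 fits its change ran from -1.05 to -0.88. Oxct1, a ketone body enzyme, was called higher by 3.94, but its ratios of -0.03, -0.17 and 5.19 at 4 h against -0.32, -0.63 and -5.87 at 2 h show 1 array at each time far from the rest. Within the early baseline, 3 of 8449 probes (0.0355%) differed between 0.3 h and 0 h, 2 higher (0.0237%) and 1 lower (0.0118%). Among them was Rprd1b, higher at 0.3 h by 3.60. Cd53, a leukocyte tetraspanin, had -2.83, -1.81 and -3.21 at 0.3 h against 0.98, 0.10 and -0.05 at 0 h. The Cd53 call was kept under 2 of the 7 alternatives run for it and in 2 of the 6 fits that left out 1 array.

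The next comparison asks whether the late change differed between U0126 and S2WT. The test of that difference called 0 of 7740 probes (0%) with limma, with 428 at an unadjusted p under 0.05. The median probe had a 95% interval of 0.844 to each side of its difference. In S2WT itself 25 of 8198 probes (0.305%) were called, 17 higher (0.207%) and 8 lower (0.0976%). Probes called in both lines numbered 7, which is 13.2% of the U0126 calls and 28% of the S2WT calls. They are Arid5b, Txnip, Creb3l2 (probe 887), Hbegf and 3 probes without a single gene symbol. No array is shared between the lines. Of the 53 U0126 calls, 52 were tested in S2WT and 48 of these (92.3%) had the same sign there, whereas 58.2% of all 7740 probes did. The median S2WT change was 0.39 for the probes called higher in U0126 and -0.28 for those called lower.

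Arid5b fell by 1.23 ± 0.15 in S2WT, and U0126 minus S2WT was 0.06 (95% interval -0.36 to 0.48). For Txnip the S2WT change was -0.98 ± 0.21 (limma, adjusted p = 0.0187) and the difference -0.36 (-0.95 to 0.22). Creb3l2 probe 887 rose by 0.87 ± 0.19 in S2WT (limma, adjusted p = 0.0258), with a difference of 0.09 (-0.45 to 0.64). Hbegf rose by 1.99 ± 0.32 in S2WT (limma, adjusted p = 0.000415), with a difference of -0.63 (-1.55 to 0.28). At 4 h its ratios were 1.13, 0.87 and 1.40 in U0126 and 2.44, 2.45 and 2.79 in S2WT. At 2 h they were 2.00, 1.71 and 1.43 in U0126 and 1.83, 1.87 and 1.82 in S2WT. The lines were not tested against each other at 4 h alone, and the tested late difference of Hbegf was not called. The S2WT 4 h arrays are those with the conflicting time label. None of the intervals shows that the lines act alike, and that for Hbegf reaches differences larger than its own U0126 change.

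**Figure D3:**
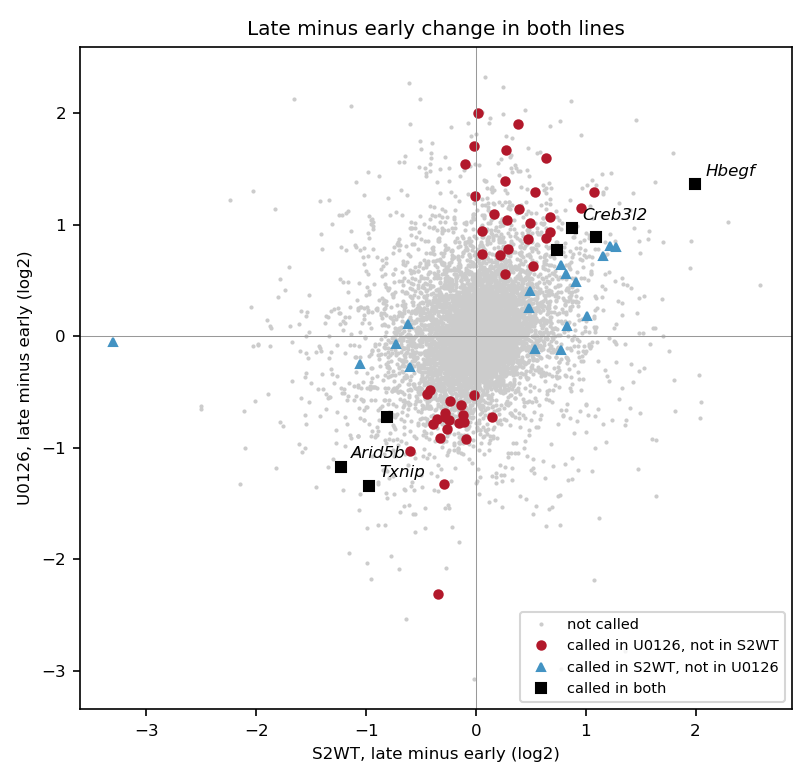
Late minus early log2 change in U0126 (vertical axis) against that in S2WT (horizontal axis) for the probes tested in both lines, coloured by the line in which limma called them. The 7 probes called in both lie in the same-sign quadrants, and the probes called higher and lower in U0126 have median S2WT changes of 0.39 and -0.28.

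The probes with the smallest p for the difference, none of them called, were Cep170 (centrosome, 3.78), Pear1 (platelet receptor, -2.13), Prkcd (protein kinase C delta, -0.80), Rad21 (cohesin, 1.35) and Myh8 (a myosin heavy chain, -0.73), each with a limma adjusted p of 0.336. Hilpda, called lower in U0126, was at 0.14 in S2WT, with a difference of -0.86 (-1.39 to -0.34; limma, adjusted p = 0.718). In the other lines, given as values only, Arid5b was at -0.48 in S3WT, -0.59 in S2KO and -0.09 in S3KO, and Hbegf at 1.36 in S3WT, 2.73 in S2KO and 0.43 in S3KO. Txnip stood at -0.17 in S3WT, -1.50 in S2KO and -0.32 in S3KO, and Creb3l2 (probe 887) at 1.19 in S3WT, 1.39 in S2KO and 0.41 in S3KO.

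TGF-β pathway genes were followed in lists. Of 26 probes for 21 TGF-β-induced genes, 1 was called higher in U0126 (Hbegf) and 0 lower, and 17 were positive, with a median change of 0.15 beside 0.02 for all probes. In S2WT the median of the list was 0.43, with 23 of 26 probes positive and Hbegf called. Since 0.365% of all probes were called higher, 1 call rests on Hbegf and says nothing of the other members. The difference, U0126 minus S2WT, had a median of -0.21 over 25 probes, 7 of them positive, and 0 were called. Gadd45b, a growth-arrest and stress protein, was high throughout in U0126. Its ratios were 1.64, 1.61 and 1.01 at 2 h and 0.71, 0.92 and 1.14 at 4 h, against 0.96, 0.53 and 0.64 at 0 h and 1.44, 0.96 and 1.02 at 0.3 h. The groups overlap, and the late minus early value was 0.24 ± 0.28 (limma, adjusted p = 0.821), beside 0.86 in S2WT. Its 0 h ratios in U0126 are all above 0.5 although both channels are labelled as without TGF-β. Snai1, the repressor of epithelial genes, behaved likewise, with late ratios of 0.91 to 1.32 against early ratios of 0.32 to 1.00 and a change of 0.41 that was not called.

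Some induced genes had late arrays above all or nearly all early ones without passing the test. Ccn1, a matricellular protein, had 0.73 to 1.17 on the late arrays against -0.18 to 0.25 on the early arrays (0.88 ± 0.39; limma, adjusted p = 0.355). Bhlhe40, a basic helix-loop-helix repressor, had 0.29 to 0.84 against -0.58 to 0.36 (0.75 ± 0.24; adjusted p = 0.151), and its groups overlap at the edge. Nuak1, an AMPK-related kinase, had 0.68 to 1.32 on the late arrays against -0.24 to 0.45 on the early arrays (0.92 ± 0.31; limma, adjusted p = 0.178). Ccn1 spread little within U0126, and fitted on the U0126 arrays alone it passed (limma, adjusted p = 0.0227). That fit is 1 of the 9 alternatives, and 41 of the 53 main calls were lost under it, so Ccn1 is not counted as called. The integrin genes Itga5 (0.76) and Itgb1 (0.64, with -0.22 on its other probe), the feedback inhibitor Skil (0.35), Tgif1 (0.13, with its other probe at -0.000333) and Klf10 (0.05) were not called. Of 9 probes for 6 TGF-β-repressed genes, 2 were called lower, for Arid5b and Txnip, and 0 higher, with a median of -0.13 in U0126 and -0.38 in S2WT, beside 0.28% of all probes called lower. Both genes are among those already described. The list was chosen with earlier results of these data known, so this count is no independent support.

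The receptors and Smads gave no calls, which with 0.644% of all probes called is near the background for lists of this size and is no result about them. Of 10 receptor probes 0 were called, with the co-receptor betaglycan (Tgfbr3) at -0.66 (limma, adjusted p = 0.16) on 1 probe and 0.18 and 0.05 on the others, endoglin (Eng) at 0.54 and the type I receptor Tgfbr1 at 0.14. Of 31 probes for 16 Smads and regulators 0 were called and 4 had an unadjusted p under 0.05. Smad3 was at -1.54 ± 0.45 on probe 7886 (limma, adjusted p = 0.103), with late arrays spread from -2.81 to 0.08, and at -0.19 and -0.07 on its other probes. The ubiquitin ligase genes Smurf1 (0.38) and Smurf2 (0.30, with 0.40 and -0.25 on its other probes) were not called, nor were both Smad7 probes (-0.83 and -0.02).

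**Figure D4:**
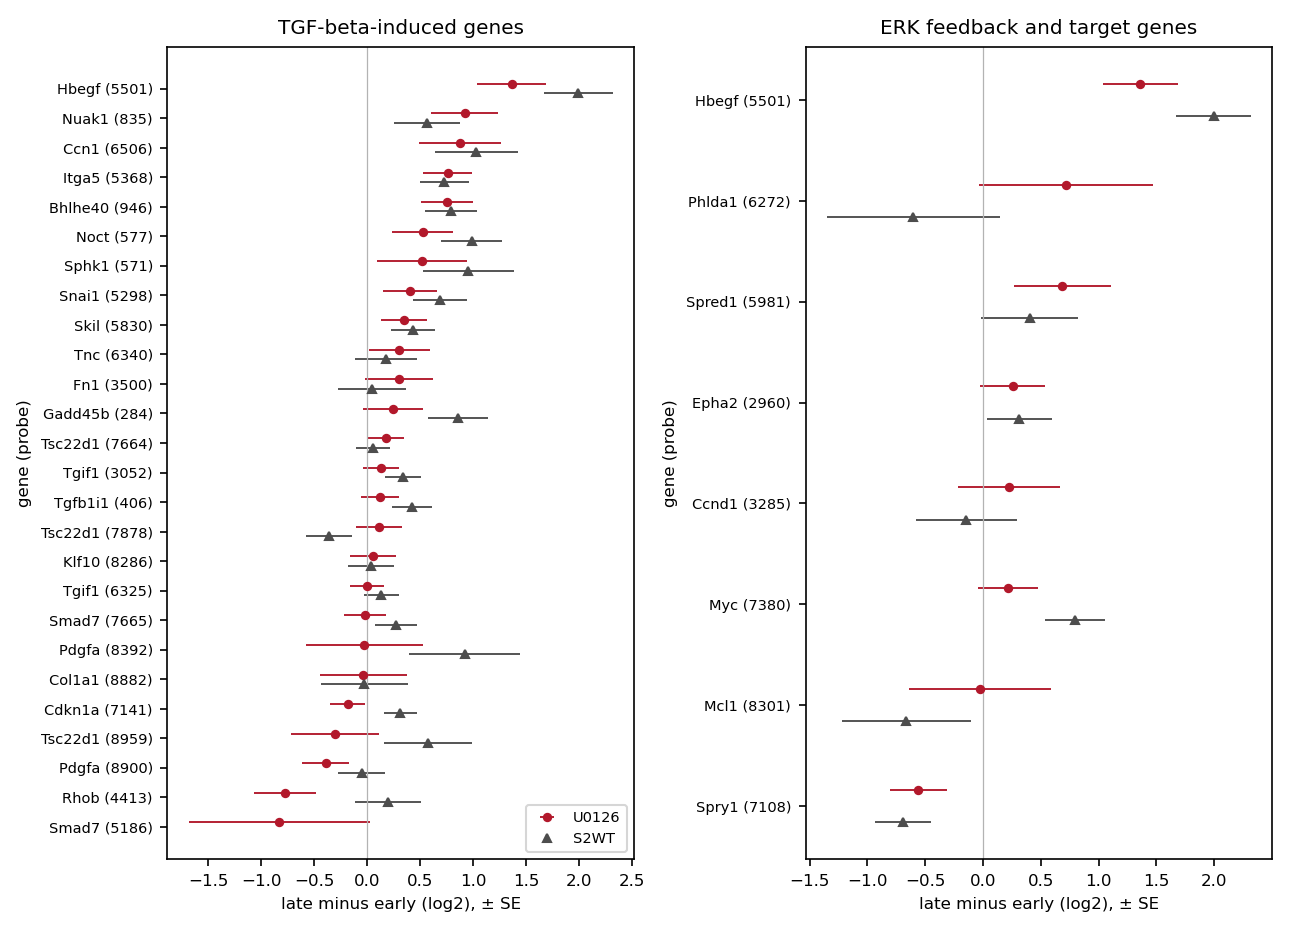
Late minus early log2 change ± SE (horizontal axis) of each tested probe of the TGF-β-induced genes (left) and the ERK targets (right), in U0126 (red circles) and S2WT (grey triangles). Hbegf at the top of both panels is the member called in either line, at 1.36 in U0126 and 1.99 in S2WT.

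Known targets of the cascade that U0126 blocks were thinly covered: 8 of the 26 listed targets and feedback inhibitors had a tested probe, and none of Dusp6, Spry2, Egr1 and Fos was among them. Of the 8, Hbegf was called higher and 0 lower, beside 0.365% of all probes called higher. The median was 0.24 in U0126 beside 0.31 over 9 probes in S2WT. Spry1, an inhibitor of the cascade, was at -0.56 ± 0.25 in U0126 (limma, adjusted p = 0.349) and -0.69 in S2WT. Myc, a growth-promoting transcription factor, was at 0.21 in U0126 and 0.79 in S2WT, and the cyclin gene Ccnd1 at 0.23 in U0126 and -0.14 in S2WT. A ratio between channels that both carry the drug's label does not measure whether ERK was blocked. Of 12 probes for 8 components of the cascade 1 was called, for Shc1, beside 0.644% of all probes. The median of the 12 was 0.03, with 6 positive. Both Braf probes had all late arrays above all early ones, at 0.84 and 0.56, beside 2.08% of all probes measured on the 12 arrays. Neither was called (limma, adjusted p = 0.197 and 0.379). A single call in a list says nothing of its other members.

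Immediate early genes, which ERK and other pathways switch on within minutes, had 0 of 16 probes called, near the background of 0.644%, with a median change of 0.11 in U0126 and 0.54 in S2WT. The difference was positive for 2 of the 16 probes, with a median of -0.29 beside 0.01 for all probes, and 0 were called. At 0 h the median ratio of the list was already 0.32 in U0126, against 0.06 in S2WT, and the part of this in the difference was not tested. Rhob, a small GTPase of the cytoskeleton, was at -0.78 (limma, adjusted p = 0.242), where 1 late array at -2.28 stood below the other late arrays of 0.01 to 0.42. Fosl2, an AP-1 subunit, was at 0.90 (adjusted p = 0.355).

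There were 0 calls, again near the background of 0.644%, in the lists of extracellular matrix (22 probes, median -0.07), actin and adhesion (20, 0.05), cell cycle (19, -0.05), respiratory chain (6, -0.14), p38 and JNK stress kinases (10, 0.01) and ribosomal proteins (4, 0.03). In the matrix list the proteoglycan Bgn was at -0.83 on 1 probe (limma, adjusted p = 0.0861) and -0.01 on the other, and the collagen crosslinker Lox at 0.48 (adjusted p = 0.0871). Lipid metabolism had 1 of 13 probes called, for Slc25a20, with a median of 0.17 and 10 probes positive. The sterol enzyme gene Hmgcs1 stood at 0.67 and Acaca, of fatty acid synthesis, at 0.48, and neither was called. Growth factors and cytokines had Hbegf called among 9 probes, and 2 probes for TGF-β ligands and their binding proteins lay at -0.16 (Tgfb2) and 0.20 (Ltbp4).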

How the data were processed

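The authors deposited 1 log2 ratio per probe and array, with dyes, background correction and normalisation not given in the sources used here. Signal over background was not used here, so the number of arrays limits the precision. Values above 16.6 (all 16.61, the log2 of 100000, 199 of them on the 12 arrays) were set to missing, and each array was centred on its median. Blank cells were 5.93%. limma 3.58.1 in R 4.3.3 fitted 25 group means over 74 arrays. Probes with at least 2 arrays in each group compared were tested, with Benjamini-Hochberg adjustment within a comparison and a threshold of 0.05. In simulated data, 46 of 100 probes changed by 1 log2 and 79 of 100 changed by 2 were recovered, with 7 false among 132 calls. Symbols came from the platform annotation, which gives 7348 of 8976 probes a single symbol, 399 several and 1229 none. The highest correlation between any 2 of the 74 arrays was 0.48, so none was treated as a duplicate. Deviations of same-numbered U0126 arrays from their group means correlated with r of 0.103 to 0.187 in the 3 pairs of 2 h with 4 h, so the numbers were taken to pair those times. Among the other times 1 of 15 pairs was over 0.1, that of 0 h with 0.3 h for replicate 1 (0.189). The main fit included no pairing and took all arrays as independent. The members and gene lists were chosen with earlier results of these data known. Named genes are the 15 largest rises and falls among called single-symbol probes whose late arrays all lie on 1 side of the early mean, up to 6 members of each list by smallest p, and a set of TGF-β and ERK genes.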

Additional observations from a re-analysis of the deposited data

Results flagged for a closer look

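Among 94 sets of 4 to 6 late or early values, 11 held an array whose gap to the others passed Dixon's 95% limit for that number of values. About 1 in 20 sets drawn from 1 normal distribution would pass it. These sets pool 2 times and many of the genes were chosen by their change, so that rate is only a rough guide. On the late side, U0126 4 h replicate 2 gave Cox7a2 -0.81, with the other late arrays at 0.11 to 0.28, Vac14 1.93 with the others at -0.11 to 0.44, and Zfyve1 -1.28 with the others at -0.29 to -0.01. On the same side 2 h replicate 1 gave Myc -0.50 (others 0.67 to 1.12) and Tgfbr1 0.082 (others -0.48 to -0.38). Pde7a was 0.65 at 4 h replicate 3 (others 0.09 to 0.29), Rhob -2.28 at 4 h replicate 1 (others 0.01 to 0.42), and Rprd1b 0.02 at 2 h replicate 2 (others -0.30 to -0.19). On the early side, Hbegf was -0.83 at 0.3 h replicate 3 (others 0.11 to 0.39), Smad3 1.19 at 0 h replicate 3 (others -0.10 to 0.27), and Vac14 -2.49 at 0 h replicate 2 (others -0.56 to 0.08).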

How the results depend on the processing

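The calls depend strongly on the settings. The 53 calls of U0126 late against early became 29 without centring (18 higher, 11 lower), 29 with only the U0126 arrays fitted (12 of them shared), 107 with the replicate block, 263 with array weights and 16 with the 0 h arrays alone as baseline. The 0.3 h arrays alone gave 53, of which 24 are among the original 53. Leaving out 1 array gave 33 (without 0 h replicate 1) to 84 (without 0.3 h replicate 3), and 13 of the 40 called probes tested in all 12 such fits kept their call in each. Txnip (probe 249), Zfas1, Creb3l2 (probe 7439) and Arid5b kept theirs under the 9 alternatives and these 12 fits. Rprd1b reversed to -0.53 with the 0.3 h baseline. For this comparison the block uses numbers that were not taken to pair the samples over all its times: 4 of 18 same-numbered pairs had r over 0.1. The 25 S2WT calls became 5 with scaling, 16 with only S2WT fitted, 43 with the block, 59 with weights, 14 with the 0 h and 12 with the 0.3 h baseline, and 4 to 44 without 1 array (4, 8, 11, 16 and 44 when the array left out was replicate 3 of 0 h, replicate 3 of 0.3 h, replicate 1 of 2 h, replicate 1 of 0 h and replicate 2 of 0.3 h). Without centring they split 3 higher and 15 lower, where the median S2WT probe moved to -0.16. The difference of lines had 2 calls with the 0 h baseline, and 0 to 1 without 1 array. The 6 calls at 1 h became 10 with ceiling values kept, 1 with only U0126 fitted, 52 with weights, 3 with the 0.3 h baseline and 5 to 42 without 1 array. The 6 calls of 4 h against 2 h became 0 without centring and 0 with only U0126 fitted (326 and 315 at an unadjusted limma p under 0.05), 3 with scaling, 3 with the block, 63 with weights and 6 to 15 without 1 array. The 3 calls of 0.3 h against 0 h became 1 with scaling, 0 on complete probes and 0 with only U0126 fitted (247 and 329 at an unadjusted limma p under 0.05), 5 with ceiling values kept, 24 with weights and 0 to 28 without 1 array. The causes were not tested.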
